A study of Mus musculus with 30 samples.

Results

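Chemokines are small secreted proteins that attract leukocytes and other motile cells, and chemokine receptors are the G protein-coupled receptors that read them. The genes described here are the mouse CC and CXC chemokines and their receptors on the array: every symbol of the form Ccl, Cxcl, Ccr or Cxcr with its number that the probe annotation names. Of 19938 genes with a probe set that names a single gene, 47 met this rule: 19 CC ligands, 13 CXC ligands, 9 CC receptors and 6 CXC receptors. A further 6 symbols of this form (Ccl21a, Ccl21b, Ccl21c, Ccl21d, Ccl27a and Ccl27b) lie only on probe sets that name several genes and were not analysed here. A gene with more than 1 probe set is represented by the brightest, by its mean over all 30 arrays.

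Total RNA of dissected mouse brain tumors and of normal brain tissue had been hybridised to Affymetrix Mouse Gene 1.0 ST arrays, which probe each transcript along its length. The study compared tumors by the promoter that drove CRE in the injected construct and by the brain region injected. GFAP is a gene of astrocytes, SYN1 of neurons and NES of neural progenitors, though not necessarily of these cells alone. The promoter thus bears on which cells can express CRE, and the cells that did so are not given by the labels. GFAP-CRE was injected into the cortex (4 tumors), the hippocampus (7 tumors) or the subventricular zone (SVZ, 3 tumors). SYN1-CRE was injected into the cortex (4 tumors) and NES-CRE into the hippocampus (4 tumors). The controls were 4 arrays of normal cortex and 4 of normal hippocampus, labelled with no promoter. No group of normal SVZ tissue was analysed here, so SVZ tumors were set against the mean of both normal tissues. Strain, age, the other elements of the constructs, the alleles of the host mice and the number of animals are not given in the sources used here. Each array is therefore counted as 1 sample of its group, and a p-value speaks only of the spread among such samples, part of which may be technical.

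CC and CXC ligands differ in the spacing of their first cysteines. Several, such as Ccl2 and Ccl7, draw monocytes through the receptor Ccr2, and others, such as Ccl3 and Ccl5, bind Ccr1 among other receptors. Cxcl1, Cxcl2 and Cxcl3 attract neutrophils through Cxcr2, and Cxcl9, Cxcl10 and Cxcl11, which interferons induce, attract activated T cells and NK cells through Cxcr3. Cxcl12 with Cxcr4, Cxcl13 with Cxcr5, Ccl20 with Ccr6 and Ccl19 with Ccr7 place cells in development and in lymphoid tissue. In the brain, microglia, astrocytes, endothelial cells and invading leukocytes can all make chemokines, and many inflammatory chemokine genes are switched on by NF-kB.

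Promoter sequences were read for 33 of the 47 genes, from RefSeq windows of 300 bases on GRCm38.p6. The 250 bases before the annotated start are printed here, 5′ to 3′ along the gene, for 5 ligands whose windows hold an NF-kB consensus and whose signals are described further on. Cxcl10 is shown at chr5:92348890-92349139 on the minus strand, Cxcl2 at chr5:90903649-90903898, Cxcl3 at chr5:90785851-90786100 and Cxcl1 at chr5:90890995-90891244 on the plus strand, and Ccl9 at chr11:83578637-83578886 on the minus strand. Capitals mark matches to the NF-kB consensus and, in Cxcl10 only, also the leftmost run of capitals, a match to the interferon response core (GAAA, any 2 bases, GAAA).
Cxcl10: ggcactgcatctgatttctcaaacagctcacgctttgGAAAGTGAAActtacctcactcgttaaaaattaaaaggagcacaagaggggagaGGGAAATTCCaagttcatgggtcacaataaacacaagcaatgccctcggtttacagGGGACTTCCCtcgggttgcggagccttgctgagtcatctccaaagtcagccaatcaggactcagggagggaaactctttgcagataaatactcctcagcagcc
Cxcl2: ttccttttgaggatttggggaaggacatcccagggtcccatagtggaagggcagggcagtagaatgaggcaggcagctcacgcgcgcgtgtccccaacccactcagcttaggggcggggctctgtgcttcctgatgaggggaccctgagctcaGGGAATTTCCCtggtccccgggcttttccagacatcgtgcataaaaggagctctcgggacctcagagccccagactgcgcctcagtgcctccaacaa
Cxcl3: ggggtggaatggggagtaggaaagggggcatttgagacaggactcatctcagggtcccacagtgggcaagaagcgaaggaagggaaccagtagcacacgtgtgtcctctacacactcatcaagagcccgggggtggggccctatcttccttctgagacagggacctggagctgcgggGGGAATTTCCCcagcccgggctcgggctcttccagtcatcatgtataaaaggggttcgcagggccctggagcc
Cxcl1: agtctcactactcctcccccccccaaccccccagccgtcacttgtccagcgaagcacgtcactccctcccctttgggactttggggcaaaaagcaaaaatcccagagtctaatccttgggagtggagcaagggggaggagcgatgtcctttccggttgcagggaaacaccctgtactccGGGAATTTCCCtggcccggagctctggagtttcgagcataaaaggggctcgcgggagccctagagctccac
Ccl9: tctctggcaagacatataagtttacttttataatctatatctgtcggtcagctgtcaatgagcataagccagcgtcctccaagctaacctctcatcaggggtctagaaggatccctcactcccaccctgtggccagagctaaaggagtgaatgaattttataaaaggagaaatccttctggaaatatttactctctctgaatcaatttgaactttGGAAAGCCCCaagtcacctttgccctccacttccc

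Counted from the start, the 2 NF-kB matches of Cxcl10 begin at -159 and -103, and its interferon response core begins at -213. In Cxcl2, Cxcl3 and Cxcl1 a palindromic site, read as 2 overlapping matches, begins at -97, -73 and -71. The match of Ccl9 begins at -35. Both motifs were searched on both strands in each whole window. The NF-kB consensus was found in 8 of 33 member genes with a window (24.2%) and in 1388 of 27025 genes (5.14%). The other 3 members with it were Ccl20, Ccr3 and Ccr6. Among members that were higher than normal tissue in at least 1 tumor group it was found in 6 of 18 (33.3%), and among the rest in 2 of 15 (13.3%). The interferon response core was found in 3 of 33 members (9.09%; Cxcl10, Ccl19 and Cxcl14) and in 3.99% of all genes. For this core the split went the other way. It was found in 1 of 18 members (5.56%) higher in at least 1 tumor group and in 2 of 15 (13.3%) of the rest. These shares are a description, with no test. A match is a stretch of letters and no measurement of binding. No window was matched for Ccl2, Ccl4, Ccl5, Ccl7, Ccl11, Ccl24, Ccl26, Cxcl5, Cxcl11, Cxcl16, Cxcl17, Ccr7, Ccr10 and Cxcr5. The 4 Cxcl genes shown lie on chromosome 5 and Ccl9 on chromosome 11.

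All levels are the deposited log2 signals, which include background, so that differences of dim genes are compressed and a low signal does not show that a gene is silent. By their mean over all arrays, 22 of the 47 genes lie among the dimmest 30% of genes. GFAP cortex tumor 1 and GFAP hippocampus tumors 5 to 7 were treated as standing apart from their groups. The first has an interquartile range of 1.88 and correlates with its group at 0.868 on average. GFAP hippocampus tumors 5 to 7 have interquartile ranges of 2.18, 2.40 and 2.28, against 2.63 to 3.03 in tumors 1 to 4. By correlation with the group only tumor 5 is low (0.889), while tumors 6 and 7 (0.941 and 0.938) are within the range of tumors 1 to 4 (0.930 to 0.948). Where these 4 arrays decide a result, its value without them stands beside it. Differences are in log2 units, with the standard error (SE) of a limma fit of the 7 group means to all genes, and a gene passed at a Benjamini-Hochberg adjusted p under 0.05 over all 19938 genes. In bulk tissue, fewer cells of a type and less RNA per cell cannot be told apart.

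**Figure D1:**
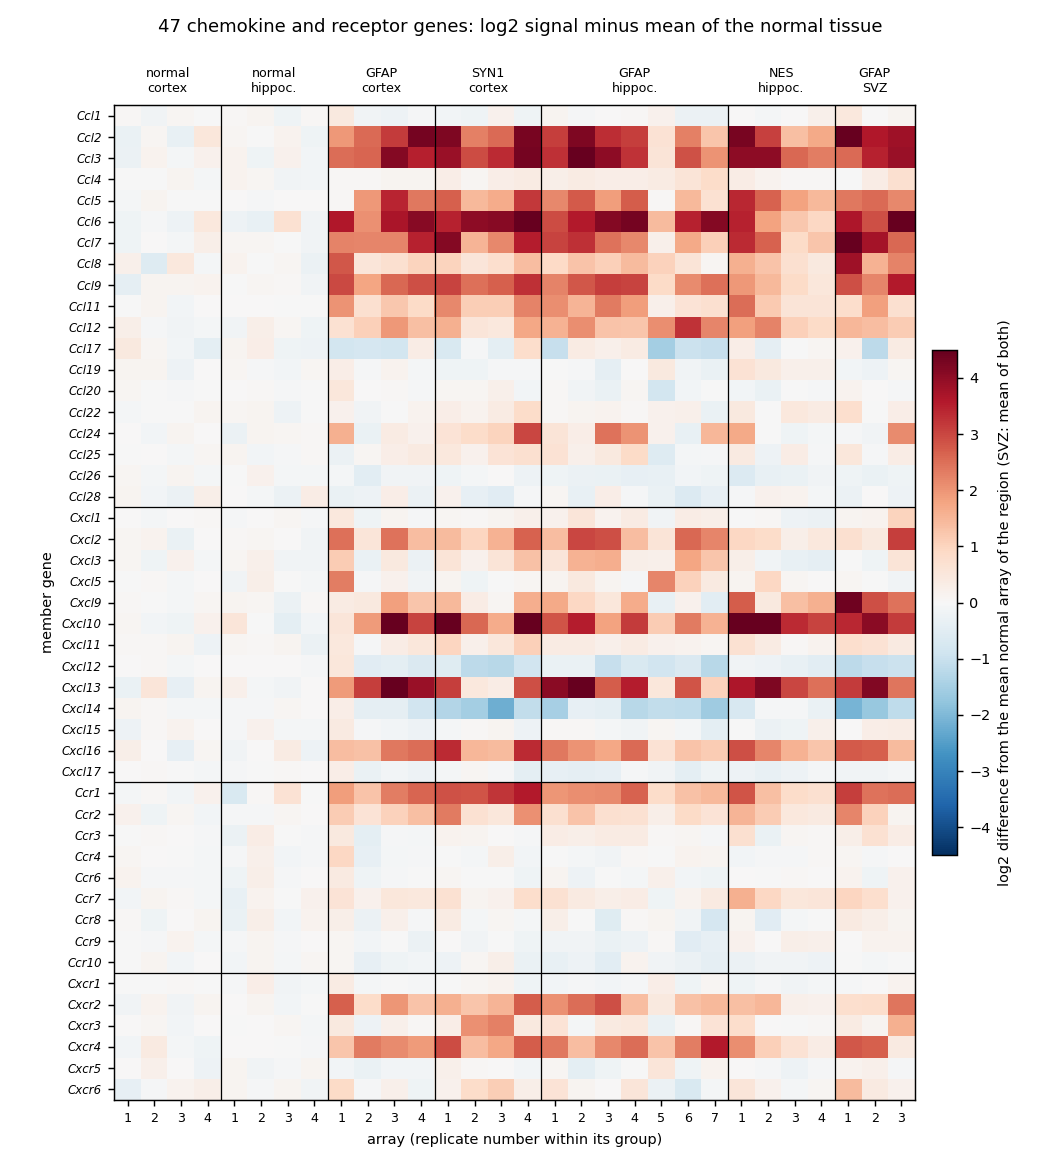
Log2 signal of each of the 47 genes (rows, by role) on each of the 30 arrays (columns, by group and replicate), minus the mean of the normal arrays of the same region (for SVZ tumors, of both regions); colours saturate at 4.5 in either direction. The tumor arrays are red for the same ligands, such as Ccl2, Ccl3 and Cxcl10, and for the receptors Ccr1, Cxcr2 and Cxcr4, while Cxcl12 and Cxcl14 are blue on most of them.

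Of the chemokine and receptor genes that differed between tumors and normal brain, most were higher in the tumors. In GFAP cortex tumors 17 of 47 were higher and none lower (limma adjusted p under 0.05), where 27.8% of all genes passed, 9% higher and 18.8% lower. In GFAP hippocampus tumors 17 were higher and 4 lower, against 41.4% of all genes (16.1% higher and 25.2% lower). SYN1 cortex tumors had 18 higher and 2 lower, against 38.7% (18.2% and 20.5%). NES hippocampus tumors had 12 higher and 1 lower, against 8.56% (5.69% and 2.86%). SVZ tumors had 23 higher and 2 lower, against 37.6% (16.2% and 21.4%). The share of members called higher thus ran from 25.5% in NES tumors to 48.9% in SVZ tumors. The p-values were adjusted within each comparison, so a difference of a given size can pass in 1 group and not in another. At an unadjusted limma p under 0.05, 19, 25, 26, 19 and 29 members differed in GFAP cortex, GFAP hippocampus, SYN1, NES and SVZ tumors. The order of the groups by calls, with NES tumors lowest, is therefore partly that of the cutoff. Over the 47 genes the median difference was 0.21, 0.26, 0.50, 0.30 and 0.43 in these 5 groups, beside -0.10, -0.08, -0.04, -0.04 and -0.0027 over all genes. Comparisons of the same region share their normal arrays, and SVZ tumors share both sets.

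**Figure D2:**
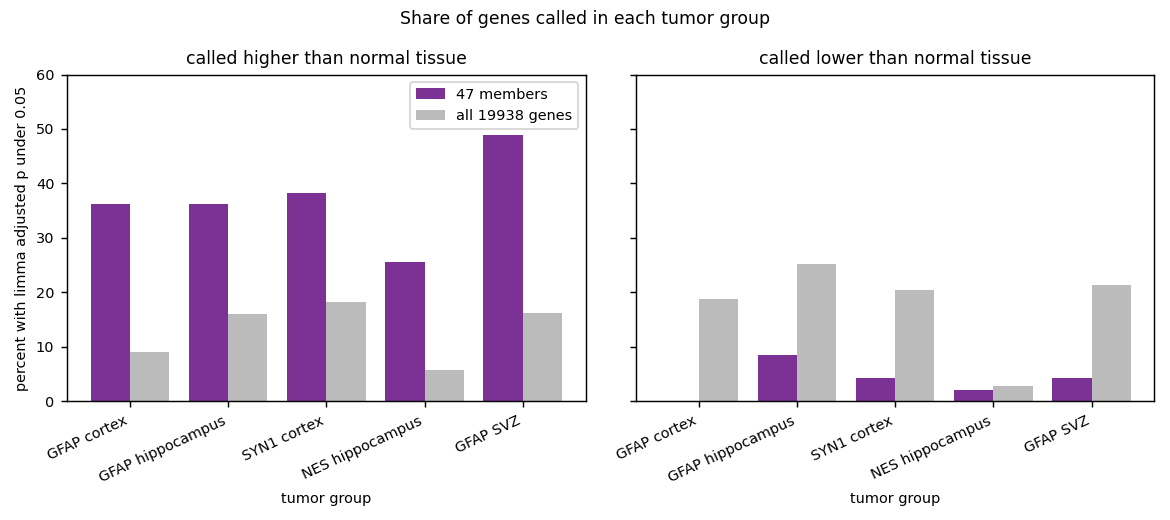
Percent of the 47 chemokine and receptor genes (purple) and of all 19938 genes (grey) called higher (left) or lower (right) than normal tissue in each of the 5 tumor groups, at a limma adjusted p under 0.05. The purple bars stand above the grey ones on the left in each group (36.2% against 9% in GFAP cortex tumors) and below them on the right.

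The counts moved with single arrays. Without NES hippocampus tumor 1, 5 members passed in NES tumors instead of 13, where 3.52% of all genes did. Without GFAP cortex tumor 3 the count in GFAP cortex tumors was 13, against 24.9% of all genes. Without the 4 arrays that stand apart it was 15 (14 higher and 1 lower, Cxcl12), against 33.3%. GFAP hippocampus tumors then gave 21 higher and 4 lower, with Ccl8, Ccl24, Ccl25 and Cxcl9 added, where 52.4% of all genes passed. This count in both directions is near the background. So were the main counts in both directions in GFAP hippocampus (44.7% of members against 41.4% of all genes) and SYN1 tumors (42.6% against 38.7%). Groups that do not overlap are common on these arrays: all arrays of a tumor group lay above all normal arrays compared with it for 13.3%, 8.43%, 23.1%, 13.6% and 19.1% of all genes (GFAP cortex, GFAP hippocampus, SYN1, NES and SVZ), and below them for 23.9%, 17.8%, 25.9%, 11% and 23.2%. On the 22 tumor arrays, 19 to 36 of the 47 genes lay above all 8 normal arrays and 3 to 14 below them, while 14.9% to 38.8% of all genes lay above and 18.2% to 50.9% below. The highest count above, 36, was on GFAP cortex tumor 1, where 34.8% of all genes did so.

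Of the 47 genes, 10 were higher in all 5 tumor groups: the CC ligands Ccl2, Ccl3, Ccl5, Ccl6, Ccl7, Ccl9 and Ccl12, the CXC ligands Cxcl10 and Cxcl16, and the receptor Ccr1. A further 16 were higher in 1 to 4 groups, 4 were lower in at least 1 (Ccl26, Cxcl12, Cxcl14 and Cxcl17), and 17 passed in none. How many of all genes were higher in all 5 groups was not counted. In single comparisons 5.69% (NES) to 18.2% (SYN1) of all genes were higher, and the comparisons share normal arrays.

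The Ccr2 ligands Ccl2, Ccl7 and Ccl12 rose in every tumor group. Ccl2 (MCP-1), the main attractant of inflammatory monocytes, had a log2 signal of 6.76, 7.15, 6.72 and 7.56 on the 4 arrays of normal cortex and 7.22, 7.11, 7.29 and 6.95 in normal hippocampus. It was at 9.004, 9.59, 10.19 and 11.34 in GFAP cortex tumors and at 11.26, 9.33, 9.61 and 11.31 in SYN1 cortex tumors. All 8 cortex tumors thus lay above every normal array. In the hippocampus, GFAP tumors ran from 7.81 to 11.34 (median 10.24) and NES tumors were at 11.42, 10.22, 8.50 and 8.86. SVZ tumors were at 11.89, 10.71 and 10.90. The lowest of the 22 tumors, a GFAP hippocampus tumor, still lay above the highest normal array. Differences from normal tissue were 2.98 ± 0.66 (SE, 4 against 4 arrays) in GFAP cortex, 2.56 ± 0.58 (7 against 4) in GFAP hippocampus, 3.33 ± 0.66 in SYN1, 2.61 ± 0.66 in NES and 4.07 ± 0.63 (3 against 8) in SVZ tumors (limma adjusted p = 0.00156, 0.00101, 0.0002, 0.0119 and 1.62e-05). The largest of these is a 16.8-fold higher signal, in SVZ tumors. The call in NES tumors was lost without NES hippocampus tumor 1 (2.05, limma adjusted p = 0.0879).

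Ccl7 (MCP-3), which uses Ccr2 and Ccr1, followed with values of 6.78, 6.98, 6.90 and 7.23 in normal cortex and 6.91, 6.91, 6.82 and 6.66 in normal hippocampus. GFAP cortex tumors had 9.22, 9.18, 9.16 and 10.42 and SYN1 cortex tumors 11.09, 8.50, 9.13 and 10.50. Tumor 4 of the GFAP cortex group was well above the other 3. NES tumors had 10.17, 9.47, 7.68 and 8.06, SVZ tumors 11.54, 10.66 and 9.49 and GFAP hippocampus tumors 7.05 to 10.13 (median 8.98). No tumor overlapped the normal arrays of its region. The differences were 2.53, 1.99, 2.83, 2.02 and 3.67 in GFAP cortex, GFAP hippocampus, SYN1, NES and SVZ tumors (limma adjusted p = 0.00289, 0.00425, 0.000456, 0.0343 and 2.05e-05). In NES tumors Ccl7 did not pass when any 1 of NES hippocampus tumors 1 and 2 and normal hippocampus 1 to 4 was left out (1.58 to 2.05, limma adjusted p from 0.0693 to 0.199).

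Ccl12, the mouse MCP-5, was higher in all 5 groups by 1.27, 1.96, 1.09, 1.51 and 1.34 (same order; limma adjusted p = 0.01, 3.29e-05, 0.0179, 0.00872 and 0.00292), with normal arrays at 5.75 to 6.32 and tumors at 6.498 to 9.18. In SYN1 tumors it did not pass when any 1 of SYN1 cortex tumors 1 and 4 was left out (0.87 to 0.92, limma adjusted p from 0.0691 to 0.0824). Ccl8 (MCP-2) was at 9.54, 7.29 and 7.97 in SVZ tumors against 5.23 to 6.29 on the normal arrays, a difference of 2.54 ± 0.40 (limma adjusted p = 2.27e-05). In GFAP cortex tumors it was 8.63, 6.35, 6.53 and 6.82. Tumor 1 was the high one there, and the difference of 1.26 (limma adjusted p = 0.0264) did not pass when any 1 of GFAP cortex tumor 1 and normal cortex 2 and 4 was left out (0.74 to 1.23, limma adjusted p from 0.0567 to 0.156). In the other groups Ccl8 differed by 0.91 (GFAP hippocampus), 0.92 (SYN1) and 1.01 (NES; limma adjusted p = 0.0534, 0.0894 and 0.152), and without the 4 arrays apart it passed in GFAP hippocampus tumors (1.17, adjusted p = 0.00547). Ccl11 (eotaxin), a ligand of Ccr3, was higher by 1.21, 1.35, 1.65 and 1.11 in GFAP cortex, GFAP hippocampus, SYN1 and SVZ tumors. Its difference in NES tumors was 1.22 (limma adjusted p = 0.0807). The Ccl11 call in GFAP cortex tumors was lost when any 1 of GFAP cortex tumors 1 and 3 and normal cortex 1 to 4 was left out (0.94 to 1.25, limma adjusted p from 0.0578 to 0.136), and that in SVZ tumors without GFAP SVZ tumor 2 (0.74, limma adjusted p = 0.275).

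**Figure D3:**
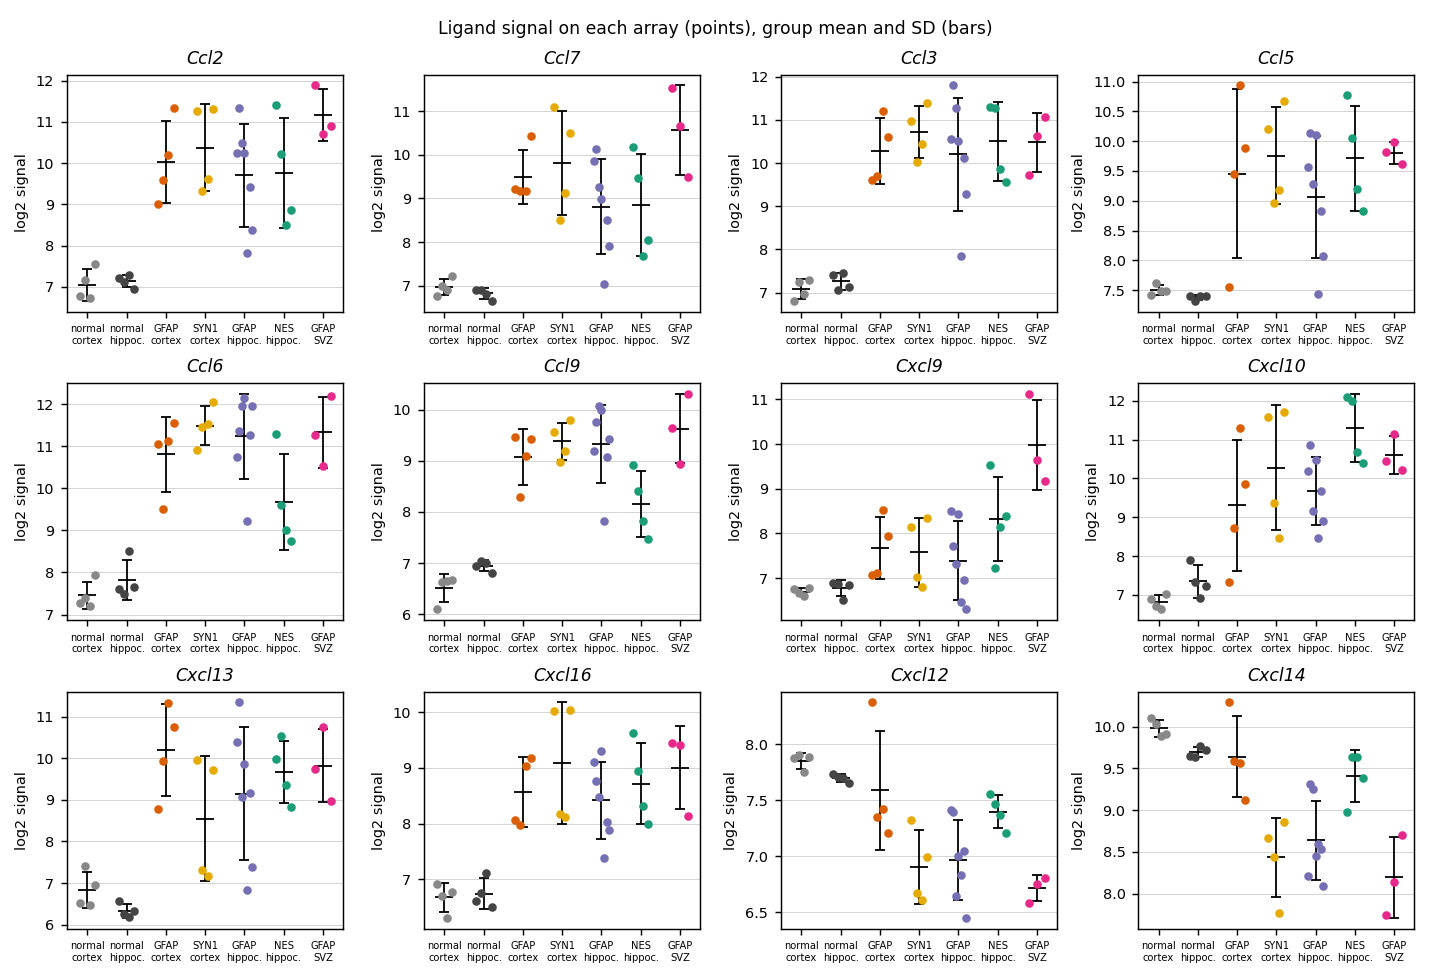
Log2 signal of 12 ligands on each array (points), by group, with the group mean and SD (bars). Tumor points lie above those of the normal tissue of their region for Ccl2, Ccl3, Ccl7, Ccl9 and Cxcl16 (normal Ccl2 6.72 to 7.56, tumors 7.81 to 11.89), SVZ tumors are highest on average for Cxcl9, and most tumors are below normal for Cxcl12 and Cxcl14.

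The ligands of Ccr1 were also high in the tumors. Ccl3 (MIP-1 alpha), made by activated microglia and macrophages, had 6.81, 7.25, 6.98 and 7.29 in normal cortex and 7.40, 7.05, 7.47 and 7.13 in normal hippocampus. It had 9.60, 9.71, 11.21 and 10.60 in GFAP cortex, 10.98, 10.02, 10.45 and 11.40 in SYN1, 11.30, 11.29, 9.86 and 9.56 in NES and 9.73, 10.63 and 11.07 in SVZ tumors, and 7.86 to 11.80 (median 10.51) in GFAP hippocampus tumors. No tumor array reached down to a normal one. Its differences were 3.20, 2.94, 3.63, 3.24 and 3.30 (GFAP cortex, GFAP hippocampus, SYN1, NES and SVZ; limma adjusted p = 0.000281, 5.94e-05, 1.72e-05, 0.000594 and 3.51e-05), and passed whichever array was left out. Ccl4 (MIP-1 beta), a ligand of macrophages and T cells, was higher in GFAP hippocampus (0.43, limma adjusted p = 0.00481) and SVZ tumors (0.33, adjusted p = 0.0373). The SVZ call of Ccl4 was lost when any 1 of GFAP SVZ tumors 2 and 3, normal cortex 1, 2 and 4 and normal hippocampus 3 and 4 was left out (0.15 to 0.34, limma adjusted p from 0.0513 to 0.454). Its probe set was dim, at 6.34 to 7.29 over all 30 arrays.

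Ccl5 (RANTES), made by T cells, NK cells and macrophages, spread widely among tumors. Normal arrays were at 7.32 to 7.63. GFAP cortex tumors had 7.55, 9.44, 10.94 and 9.89, so tumor 1 lay within the range of normal cortex and tumor 3 was the highest of all 30 arrays. SYN1 tumors had 10.20, 8.97, 9.19 and 10.67 and NES tumors 10.78, 10.05, 9.19 and 8.83. SVZ tumors were close together at 9.82, 9.98 and 9.62, and GFAP hippocampus tumors ran from 7.44 to 10.14 (median 9.28). The differences were 1.95, 1.68, 2.25, 2.33 and 2.36 in GFAP cortex, GFAP hippocampus, SYN1, NES and SVZ tumors (limma adjusted p = 0.011, 0.00913, 0.00219, 0.00951 and 0.000997). In GFAP cortex tumors Ccl5 did not pass without GFAP cortex tumor 3 (1.46, limma adjusted p = 0.0616). In NES tumors it did not pass without NES hippocampus tumor 1 (1.97, limma adjusted p = 0.0649).

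Ccl6 and Ccl9, rodent ligands of Ccr1 made by myeloid cells, rose in all 5 groups, and Ccl6 showed the largest rise of the CC ligands in GFAP cortex, GFAP hippocampus and SYN1 tumors. Ccl6 had 7.27, 7.40, 7.21 and 7.93 in normal cortex and 7.60, 7.495, 8.52 and 7.65 in normal hippocampus, where array 3 was the high one. It had 11.06, 9.51, 11.13 and 11.55 in GFAP cortex, 10.92, 11.47, 11.54 and 12.04 in SYN1 and 11.27, 10.53 and 12.21 in SVZ tumors. GFAP hippocampus tumors ran from 9.23 to 12.14 (median 11.37) and NES tumors had 11.29, 9.61, 9.01 and 8.76. NES tumors 2 to 4 were thus below all but 1 tumor of the GFAP hippocampus group. The differences were 3.36 ± 0.55, 3.42 ± 0.48, 4.04 ± 0.55, 1.85 ± 0.55 and 3.70 ± 0.52 (GFAP cortex, GFAP hippocampus, SYN1, NES and SVZ; limma adjusted p = 0.000117, 5.63e-06, 3.07e-06, 0.0321 and 6.33e-06). In SYN1 tumors this is a 16.5-fold higher signal. The NES call was lost when any 1 of NES hippocampus tumors 1 and 2 and normal hippocampus 1, 2 and 4 was left out (1.31 to 1.87, limma adjusted p from 0.0658 to 0.215).

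Ccl9 was higher by 2.56, 2.38, 2.87, 1.21 and 2.90 in GFAP cortex, GFAP hippocampus, SYN1, NES and SVZ tumors (limma adjusted p = 4.77e-05, 5.04e-06, 2.18e-06, 0.0437 and 1.67e-06). Its levels were 6.10, 6.63, 6.64 and 6.67 in normal cortex, where array 1 was low, and 6.95, 7.05, 7.01 and 6.81 in normal hippocampus. NES tumors had 8.92, 8.42, 7.82 and 7.48. GFAP cortex, SYN1 and SVZ tumors lay at 8.30 to 10.30, and GFAP hippocampus tumors, of the same region as NES tumors, at 7.83 to 10.07. NES tumors 1 and 2 were therefore within both ranges. NES tumor 3 lay at the lower edge of the GFAP hippocampus range and NES tumor 4 below it. In NES tumors the Ccl9 difference did not pass when any 1 of NES hippocampus tumors 1 and 2 and normal hippocampus 1 to 4 was left out (0.95 to 1.24, limma adjusted p from 0.0808 to 0.229).

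The remaining CC ligands passed in few comparisons. Ccl22, a ligand of Ccr4 made by dendritic cells and macrophages, was higher in SYN1 tumors (0.41, limma adjusted p = 0.0357), and this was lost when any 1 of SYN1 cortex tumors 3 and 4 and normal cortex 1, 2 and 3 was left out (0.28 to 0.43, limma adjusted p from 0.0541 to 0.187). Ccl24 (eotaxin-2), another ligand of Ccr3, reached 7.08, 7.28, 7.47 and 9.48 in SYN1 tumors against 6.46, 6.34, 6.56 and 6.46 in normal cortex. Its groups did not overlap, but SYN1 tumor 4 lay far above the rest and the difference of 1.37 ± 0.59 did not pass (limma adjusted p = 0.0698). Without the 4 arrays apart, Ccl24 passed in GFAP hippocampus tumors (1.34, limma adjusted p = 0.0429), as did Ccl25 (0.54, adjusted p = 0.00557). Ccl26 (eotaxin-3) was lower in GFAP hippocampus (-0.25) and NES tumors (-0.35; limma adjusted p = 0.0314 and 0.0366). The Ccl26 calls were lost, in GFAP hippocampus tumors, when any 1 of GFAP hippocampus tumor 4 and normal hippocampus 1 and 2 was left out (-0.25 to -0.18, limma adjusted p from 0.0533 to 0.155) and, in NES tumors, when any 1 of NES hippocampus tumors 1 and 2 and normal hippocampus 1, 2 and 4 was left out (-0.38 to -0.26, limma adjusted p from 0.054 to 0.221). The T cell attractants Ccl1 and Ccl17, the mucosal ligand Ccl28, the Ccr6 ligand Ccl20, the Ccr7 ligand Ccl19 and Ccl25, a ligand of Ccr9 in thymus and gut, did not pass against normal tissue in any group. Ccl20 lay at 6.40 to 6.57 on the normal arrays and 5.70 to 6.96 on the tumor arrays. Ccl19 has 5 probe sets that name it and near-identical copies in the mouse genome, so its signal cannot be given to 1 copy. It lay at 7.27 to 7.63 in normal tissue and at 8.06, 7.85, 7.61 and 7.61 in NES tumors, above all normal hippocampus arrays, a difference of 0.39 (limma adjusted p = 0.102).

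Of the neutrophil attractants, Cxcl2 rose in 4 groups, Cxcl1 and Cxcl3 in 1 each, and Cxcl5 in none. Cxcl2 (MIP-2) had 5.62, 5.70, 5.23 and 5.56 in normal cortex and 5.51, 5.57, 5.49 and 5.33 in normal hippocampus. GFAP cortex tumors had 8.003, 6.08, 7.99 and 6.91 and SYN1 tumors 6.95, 6.51, 7.09 and 8.19. GFAP hippocampus tumors ran from 6.06 to 8.48 (median 7.68). Every array of these 3 groups lay above the normal arrays of its region. NES tumors had 6.42, 6.29, 5.72 and 5.96 and SVZ tumors 6.21, 5.95 and 8.62, where tumor 3 was the high one. Differences were 1.72, 2.005, 1.65, 0.62 and 1.42 (GFAP cortex, GFAP hippocampus, SYN1, NES and SVZ; limma adjusted p = 0.0139, 0.00109, 0.0119, 0.521 and 0.024), so that NES tumors did not pass. Cxcl2 also did not pass, in GFAP cortex tumors, when any 1 of GFAP cortex tumors 1 and 3 was left out (1.46 to 1.47, limma adjusted p from 0.0542 to 0.06); in SYN1 tumors, without SYN1 cortex tumor 4 (1.32, limma adjusted p = 0.0624); and in SVZ tumors, without GFAP SVZ tumor 3 (0.58, limma adjusted p = 0.428).

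Cxcl1 (KC) and Cxcl3 carry the same overlapping NF-kB letters in the sequences printed above as Cxcl2. Cxcl1 lay at 6.85 to 7.02 in normal tissue and rose only in SVZ tumors (7.08, 7.11 and 7.94; 0.43, limma adjusted p = 0.0271), a call lost without GFAP SVZ tumor 3 (0.15, limma adjusted p = 0.5). Cxcl3 rose in GFAP hippocampus tumors by 1.04 ± 0.29 (limma adjusted p = 0.00636), from 6.58, 6.70, 6.35 and 6.33 in normal hippocampus to 6.73 to 8.26 (median 7.73). NES tumors were at 6.76, 6.34, 6.17 and 6.09, overlapping normal hippocampus. Cxcl5, another neutrophil attractant, passed in no group, though single arrays were high: GFAP cortex tumor 1 was at 7.99 and GFAP hippocampus tumor 5 at 7.92, against 5.56 to 5.99 in normal tissue. Cxcl15 (lungkine), known from lung, also passed in none. Cxcl17, a mucosal chemokine, was lower in GFAP hippocampus tumors (-0.28, limma adjusted p = 0.0386). That call was lost when any 1 of GFAP hippocampus tumors 1, 2, 3 and 6 and normal hippocampus 1 to 4 was left out (-0.30 to -0.25, limma adjusted p from 0.0529 to 0.0934).

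Of the interferon-induced ligands of Cxcr3, Cxcl10 rose in all 5 groups, Cxcl11 in 2 and Cxcl9 in 1. Cxcl10 (IP-10) had 6.89, 6.70, 6.63 and 7.02 in normal cortex and 7.91, 7.34, 6.91 and 7.22 in normal hippocampus. GFAP cortex tumors had 7.34, 8.73, 11.29 and 9.85, SYN1 tumors 11.58, 9.38, 8.46 and 11.70, NES tumors 12.10, 12.01, 10.69 and 10.40 and SVZ tumors 10.46, 11.15 and 10.21. NES tumors 1 and 2 were the highest of all arrays, and GFAP cortex tumor 1 was close to normal hippocampus. GFAP hippocampus tumors ran from 8.48 to 10.87 (median 9.69). The differences were 2.50 ± 0.68, 2.33 ± 0.61, 3.47 ± 0.68, 3.95 ± 0.68 and 3.53 ± 0.66 (GFAP cortex, GFAP hippocampus, SYN1, NES and SVZ; limma adjusted p = 0.00758, 0.00328, 0.000205, 0.000499 and 0.000119). In NES tumors that is a 15.5-fold higher signal. Each of the 5 calls held whichever array was left out.

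Cxcl9 (MIG), which interferon gamma in particular induces, passed only in SVZ tumors, where the 3 arrays had 11.12, 9.63 and 9.18 against 6.51 to 6.90 on the 8 normal arrays. That difference was 3.24 ± 0.48 (limma adjusted p = 1.01e-05). In the other groups Cxcl9 lay above normal by 0.97 (GFAP cortex), 0.60 (GFAP hippocampus), 0.88 (SYN1) and 1.54 (NES; limma adjusted p = 0.161, 0.287, 0.182 and 0.0539). NES tumors had 9.52, 7.22, 8.15 and 8.39, all above normal hippocampus, and GFAP hippocampus tumors ran from 6.30 to 8.51 (median 7.31), overlapping it. Without the 4 arrays apart, GFAP hippocampus tumors passed as well (1.21, limma adjusted p = 0.026). Cxcl11 (I-TAC) rose in SYN1 (0.70) and SVZ tumors (0.60; limma adjusted p = 0.00123 and 0.00314). Measured beside these, interferon gamma itself (Ifng) differed from normal tissue by -0.10, -0.01, 0.06, 0.08 and 0.28 and passed in none, while Irf7, a transcription factor of the interferon response, rose by 1.80, 1.96, 2.68, 2.68 and 2.49. The part of either in the ligand levels was not tested.

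Cxcl13, the B cell attractant that binds Cxcr5, rose in 4 of the 5 groups. It had 6.53, 7.40, 6.47 and 6.96 in normal cortex and 6.56, 6.25, 6.18 and 6.34 in normal hippocampus. GFAP cortex tumors had 8.77, 9.94, 11.32 and 10.74, NES tumors 9.97, 10.53, 9.35 and 8.82 and SVZ tumors 9.75, 10.74 and 8.98. In SYN1 tumors the arrays split, at 9.95, 7.31, 7.18 and 9.72: tumors 1 and 4 were high and tumors 2 and 3 near normal cortex. GFAP hippocampus tumors ran from 6.84 to 11.34 (median 9.15). The differences were 3.35, 2.82, 1.70, 3.34 and 3.24 (GFAP cortex, GFAP hippocampus, SYN1, NES and SVZ; limma adjusted p = 0.00188, 0.00151, 0.0779, 0.00562 and 0.000758). B cell markers, which are the cells Cxcl13 attracts, were at a mean log2 signal of 6.25 to 6.46 in normal tissue and 6.09 to 6.55 in tumors. Of 6 such markers measured, 2 rose in SVZ, 1 rose in SYN1 and 1 fell in GFAP hippocampus tumors. Of all genes, 16.2% were higher in SVZ, 18.2% higher in SYN1 and 25.2% lower in GFAP hippocampus tumors.

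Cxcl16, a membrane-bound ligand of Cxcr6 that is also shed, rose in every group and in every alternative in which an array was left out. Normal cortex had 6.92, 6.69, 6.31 and 6.77 and normal hippocampus 6.60, 6.75, 7.12 and 6.498. SYN1 tumors had 10.02, 8.17, 8.11 and 10.05, where tumors 1 and 4 were again the higher pair, and NES tumors 9.63, 8.95, 8.31 and 7.99. GFAP cortex tumors lay at 8.07, 7.98, 9.03 and 9.19, SVZ tumors at 9.45, 9.41 and 8.14 and GFAP hippocampus tumors at 7.39 to 9.31 (median 8.47). No tumor overlapped the normal arrays of its region. The differences were 1.89, 1.68, 2.41, 1.98 and 2.29 in the same order of groups (limma adjusted p = 0.00316, 0.00177, 0.000134, 0.00671 and 0.000159).

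Cxcl12 and Cxcl14, both made in healthy brain, were the ligands that fell most, each in 3 groups. Cxcl12 (SDF-1), which guides and retains cells through Cxcr4, had 7.88, 7.91, 7.75 and 7.89 in normal cortex and 7.73, 7.71, 7.70 and 7.65 in normal hippocampus. SYN1 tumors had 7.33, 6.68, 6.61 and 6.998, SVZ tumors 6.59, 6.75 and 6.81 and GFAP hippocampus tumors 6.45 to 7.41 (median 6.999). All of these lay below every normal array. NES tumors had 7.56, 7.46, 7.37 and 7.21, also below normal hippocampus but by less. In GFAP cortex tumors, tumor 1 at 8.37 was above all normal arrays and tumors 2 to 4 (7.35, 7.43 and 7.20) were below them. The difference was -0.73 ± 0.18 in GFAP hippocampus, -0.95 ± 0.21 in SYN1 and -1.06 ± 0.20 in SVZ tumors (limma adjusted p = 0.00256, 0.000589 and 0.000133). In GFAP cortex and NES tumors the differences were -0.27 and -0.30 (limma adjusted p = 0.387 and 0.432). Without GFAP cortex tumor 1 the difference in GFAP cortex tumors was -0.53 and passed (limma adjusted p = 0.0378).

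Cxcl14 (BRAK), a chemokine of interneurons and epithelia, fell in the same 3 groups as Cxcl12. It had 10.10, 10.04, 9.88 and 9.91 in normal cortex and 9.65, 9.64, 9.77 and 9.72 in normal hippocampus. SYN1 tumors had 8.66, 8.44, 7.77 and 8.86, SVZ tumors 7.74, 8.14 and 8.70 and GFAP hippocampus tumors 8.10 to 9.31 (median 8.54), all below the normal arrays. GFAP cortex tumors had 10.29, 9.59, 9.56 and 9.12 and NES tumors 8.98, 9.64, 9.64 and 9.38; both groups overlapped normal tissue. The difference was -1.06 ± 0.24, -1.55 ± 0.27 and -1.64 ± 0.26 in GFAP hippocampus, SYN1 and SVZ tumors (limma adjusted p = 0.000904, 4.99e-05 and 1.86e-05). The differences in GFAP cortex and NES tumors were -0.34 and -0.29 (limma adjusted p = 0.388 and 0.575). Neuron markers fell in the 3 groups in which these ligands fell and also in GFAP cortex tumors. In GFAP cortex tumors neither ligand passed on all arrays, and Cxcl12 passed as lower without GFAP cortex tumor 1. Of 9 neuron markers measured, 7 fell in GFAP cortex, 7 in GFAP hippocampus, 7 in SYN1, none in NES and 8 in SVZ tumors. Among all genes, 18.8%, 25.2%, 20.5%, 2.86% and 21.4% were lower in these comparisons. The mean log2 signal of the markers was 11.83 to 12.35 on the normal arrays, 10.62 to 11.83 in NES and 8.20 to 11.43 in the other tumors. Their part in the falls of Cxcl12 and Cxcl14 was not tested.

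Among the 9 CC receptors, Ccr1 rose in all 5 tumor groups and Ccr2 in 3. Ccr1, the myeloid receptor of Ccl3, Ccl5, Ccl6, Ccl7 and Ccl9, had 5.15, 5.27, 5.09 and 5.41 in normal cortex and 4.80, 5.56, 6.13 and 5.48 in normal hippocampus. SYN1 tumors had 8.11, 8.06, 8.43 and 8.81 and GFAP cortex tumors 7.09, 6.51, 7.53 and 7.84. SVZ tumors had 8.46, 7.79 and 7.88, NES tumors 8.34, 6.86, 6.32 and 6.22 and GFAP hippocampus tumors 6.31 to 8.14 (median 7.48). Every tumor array lay above the normal arrays of its region. The differences were 2.01 ± 0.39, 1.78 ± 0.34, 3.12 ± 0.39, 1.44 ± 0.39 and 2.69 ± 0.37 (GFAP cortex, GFAP hippocampus, SYN1, NES and SVZ; limma adjusted p = 0.000519, 0.000202, 1.18e-06, 0.0182 and 4.95e-06). In NES tumors Ccr1 did not pass when any 1 of NES hippocampus tumor 1 and normal hippocampus 1 was left out (0.98 to 1.21, limma adjusted p from 0.0832 to 0.139).

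Ccr2, the monocyte receptor of Ccl2, Ccl7 and Ccl12, rose in GFAP cortex, SYN1 and SVZ tumors. It had 5.69, 5.30, 5.58 and 5.37 in normal cortex and 5.47, 5.47, 5.63 and 5.55 in normal hippocampus, against 7.84, 6.18, 5.98 and 7.54 in SYN1 and 6.61, 6.09, 6.54 and 6.85 in GFAP cortex tumors. SVZ tumors had 7.69, 6.56 and 5.63, where tumor 3 was within the normal range, and NES tumors 7.06, 6.67, 6.01 and 5.95. GFAP hippocampus tumors ran from 5.81 to 6.82 (median 6.25). Ccr2 was higher in GFAP cortex (1.04), SYN1 (1.40) and SVZ tumors (1.12; limma adjusted p = 0.0318, 0.00269 and 0.0112). The differences of 0.73 in GFAP hippocampus and 0.89 in NES tumors did not pass (limma adjusted p = 0.0675 and 0.136), although neither group overlapped normal hippocampus. The same held for 8.43% and 13.6% of all genes in these comparisons. The Ccr2 call in GFAP cortex tumors was lost when any 1 of GFAP cortex tumors 1, 3 and 4 and normal cortex 2, 3 and 4 was left out (0.93 to 1.07, limma adjusted p from 0.0522 to 0.0887), and that in SVZ tumors without GFAP SVZ tumor 1 (0.59, limma adjusted p = 0.237).

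Ccr7, the receptor of Ccl19 on dendritic cells and naive T cells, was higher in NES (0.90 ± 0.21) and SVZ tumors (0.63 ± 0.20; limma adjusted p = 0.00769 and 0.0151). NES tumors had 8.57, 7.90, 7.47 and 7.52 and normal hippocampus 6.62, 7.12, 6.94 and 7.17. NES tumor 1 stood highest, and the call was lost without NES hippocampus tumor 1 (0.67, limma adjusted p = 0.0619). The SVZ call was lost when any 1 of GFAP SVZ tumors 1 and 2 was left out (0.47 to 0.58, limma adjusted p from 0.0756 to 0.137). Ccr3, the eosinophil receptor of Ccl11, was higher in SVZ tumors (0.43, limma adjusted p = 0.0459) and lost that call when any 1 of GFAP SVZ tumors 1, 2 and 3, normal cortex 1 to 4 and normal hippocampus 1, 3 and 4 was left out (0.31 to 0.50, limma adjusted p from 0.0544 to 0.275). The T cell receptors Ccr4 and Ccr8, the Ccl20 receptor Ccr6, the gut-homing receptor Ccr9 and the skin-homing receptor Ccr10 did not pass in any of the 5 groups. Their differences ran from -0.25 to 0.26. Ccr6 lay at 5.90 to 6.37 in normal tissue and 5.89 to 6.56 in tumors.

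**Figure D4:**
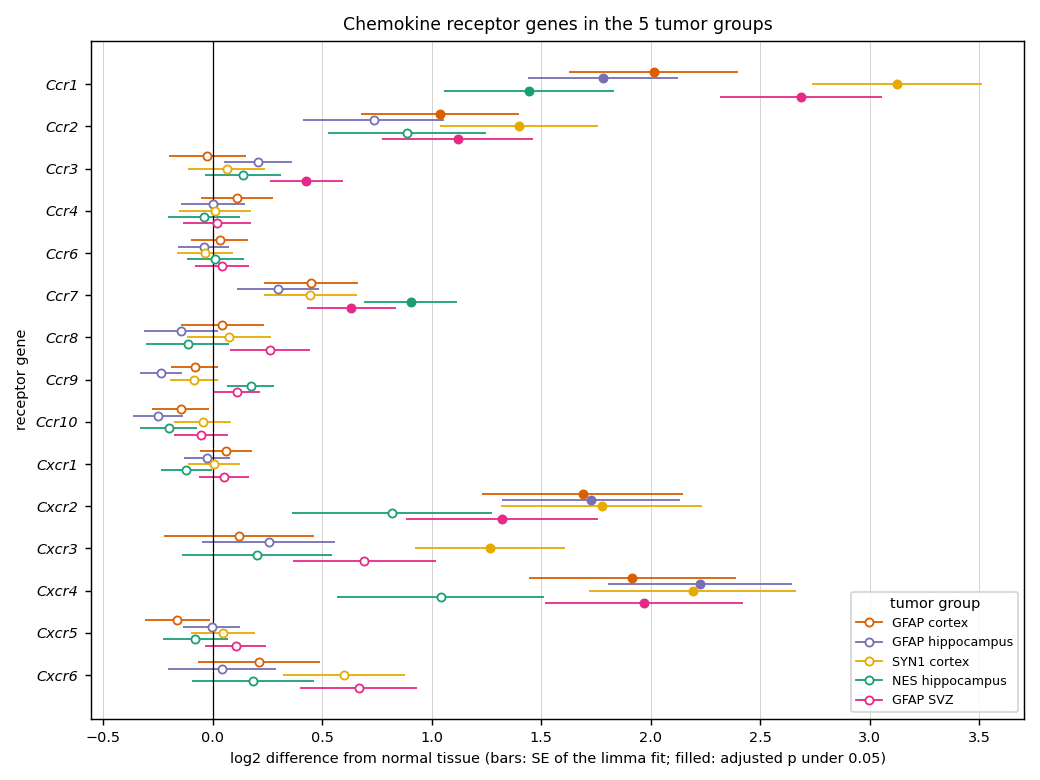
Log2 difference from normal tissue of the 15 receptor genes in each of the 5 tumor groups (colours), with the SE of the limma fit; filled points passed at an adjusted p under 0.05. Ccr1 is filled in all 5 groups, Cxcr2 and Cxcr4 in all but NES hippocampus tumors, and most of the other receptors lie near 0.

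Of the 6 CXC receptors, Cxcr2 and Cxcr4 rose in all groups but NES tumors, and Cxcr3 rose in SYN1 tumors. Cxcr2, the neutrophil receptor of Cxcl1, Cxcl2 and Cxcl3, had 4.97, 5.30, 4.97 and 5.25 in normal cortex and 5.37, 5.45, 5.20 and 5.33 in normal hippocampus. It had 7.81, 5.93, 7.12 and 6.39 in GFAP cortex, 6.73, 6.38, 6.64 and 7.85 in SYN1, 6.69, 6.84, 5.55 and 5.54 in NES and 5.995, 6.01 and 7.65 in SVZ tumors, and 5.78 to 8.23 (median 6.81) in GFAP hippocampus tumors. All these tumor arrays were above the normal arrays of their region. The differences were 1.69, 1.73, 1.78, 0.82 and 1.32 (GFAP cortex, GFAP hippocampus, SYN1, NES and SVZ; limma adjusted p = 0.0071, 0.00139, 0.00273, 0.308 and 0.0181). In SVZ tumors Cxcr2 did not pass without GFAP SVZ tumor 3 (0.77, limma adjusted p = 0.242), the array that also carried the high Cxcl1 and Cxcl2. Neutrophil markers on that array averaged 7.69, against 6.15 to 6.36 in normal tissue. The highest GFAP cortex tumor array was close to it, at 7.67. The part of neutrophils in these signals was not tested.

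Cxcr4, the receptor of Cxcl12, rose in the 3 groups in which its ligand fell and in GFAP cortex tumors. It had 6.80, 7.31, 6.81 and 6.72 in normal cortex and 7.41, 7.39, 7.38 and 7.35 in normal hippocampus. Tumors had 8.17, 9.24, 9.05 and 8.84 (GFAP cortex), 9.85, 8.29, 8.65 and 9.62 (SYN1), 9.46, 8.46, 8.04 and 7.73 (NES) and 9.95, 9.85 and 7.55 (SVZ). GFAP hippocampus tumors ran from 8.67 to 10.95 (median 9.70). The differences were 1.92 ± 0.47, 2.22 ± 0.42, 2.19 ± 0.47 and 1.97 ± 0.45 in the 4 groups that passed and 1.04 ± 0.47 in NES tumors (limma adjusted p = 0.00362, 0.000159, 0.000517, 0.001 and 0.191). In SVZ tumors, arrays 1 and 2 were high and array 3 was near normal.

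Cxcr3, the receptor of Cxcl9, Cxcl10 and Cxcl11 on activated T and NK cells, rose only in SYN1 tumors, by 1.27 ± 0.34 (limma adjusted p = 0.00398). SYN1 tumors had 7.27, 9.01, 9.23 and 7.41 and normal cortex 6.99, 7.06, 6.83 and 6.98. Tumors 2 and 3 were the higher pair, and these are the SYN1 tumors with the lower Cxcl9 (7.02 and 6.80) and Cxcl10 (9.38 and 8.46). In NES tumors Cxcr3 was at 7.73, 6.96, 6.94 and 7.005 and in SVZ tumors at 7.33, 7.07 and 8.55. T cell markers did not rise in SYN1 tumors: of 9 measured, none was higher and 1, Thy1, which neurons also express, was lower. Of all genes, 18.2% were higher there and 20.5% lower. Cxcr5, the receptor of Cxcl13, lay in the range 5.22 to 6.20 on all 30 arrays and passed in none. Cxcr1 and Cxcr6 passed in none either. Cxcr6, the receptor of Cxcl16, differed by 0.60 in SYN1 and 0.67 in SVZ tumors (limma adjusted p = 0.0937 and 0.0505).

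Tumors of different promoters in the same region were then set against each other. Between SYN1 and GFAP cortex tumors no member passed (limma; 7 at an unadjusted p under 0.05), where 0.176% of all genes did. The 4 largest of these 7, as SYN1 minus GFAP tumors, were Cxcl14 (-1.20, 95% interval -1.76 to -0.65, limma adjusted p = 0.0564), Cxcl13 (-1.65, interval -3.21 to -0.09), Cxcr3 (1.15, 0.44 to 1.85) and Ccr1 (1.11, 0.31 to 1.91). Without GFAP cortex tumor 1, Cxcl14 (-0.99, limma adjusted p = 0.0352) and Cxcr3 (1.25, adjusted p = 0.0469) passed, where 5.68% of all genes did. Without all 4 arrays apart Cxcl13 passed too (-2.12, limma adjusted p = 0.0267), where 13.3% of all genes did. In both fits the members' share was below that of all genes.

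NES hippocampus tumors had lower signals of the neutrophil and myeloid ligands Cxcl3, Ccl6 and Ccl9 than GFAP hippocampus tumors, and higher signals of Ccl19, Ccr7, Ccr9 and Cxcl14. These 7 members passed, where 8.21% of all genes did (6.12% higher and 2.09% lower). The difference of NES from GFAP tumors was -1.19 ± 0.29 for Cxcl3, -1.57 ± 0.48 for Ccl6 and -1.17 ± 0.33 for Ccl9 (7 GFAP and 4 NES arrays; limma adjusted p = 0.0229, 0.0454 and 0.0345). Higher were Cxcl14 (0.77), Ccr7 (0.61), Ccl19 (0.45) and Ccr9 (0.41; limma adjusted p = 0.0452, 0.0476, 0.0353 and 0.0206). In each of the 7 the arrays of both groups overlapped. The split of 4 higher and 3 lower depended on scaling: with arrays centred on their medians it was none higher and 7 lower, and with quantile normalization 1 higher and 4 lower, and centring moved the median difference of all genes from 0.06 to -0.16. Ccl6, Ccl9 and Cxcl3 were lower under all of these scalings. None of the 7 passed when only the 11 arrays of both groups were fitted, or without NES tumor 3 or 4, where 0%, 0.0752% and 0.0301% of all genes passed. Without GFAP hippocampus tumors 5 to 7, Ccr7 and Cxcl14 did not pass, while Cxcl2 (-1.55) and Cxcr2 (-1.39) were lower in NES tumors (limma adjusted p = 0.047 and 0.038). In that fit 7 members and 10.9% of all genes passed. In the same comparison monocyte markers were lower in 2 of 8, neutrophil markers in 1 of 9 and microglia and macrophage markers in 1 of 12, and resting microglia markers were higher in 1 of 8. Their part in the result was not tested.

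GFAP tumors of different regions differed in few of these genes. Between hippocampus and cortex tumors 1 member passed, Cxcl14, which was lower in the hippocampus (-1.002, limma adjusted p = 0.0241), where 2.68% of all genes passed. With the replicate number as a block the Cxcl14 difference was -0.83 (limma adjusted p = 0.203) and none passed. The call of Cxcl14 was also lost when any 1 of GFAP cortex tumors 1, 2 and 3 and GFAP hippocampus tumor 7 was left out (-1.03 to -0.78, limma adjusted p from 0.0502 to 0.058), and without GFAP cortex tumor 1 Cxcl3 passed in its place (1.18, adjusted p = 0.0237), where 7.13% of all genes passed. The change from normal tissue in the hippocampus minus that in the cortex passed for no member in limma, and none had an unadjusted p under 0.05, where 0.838% of all genes passed. Between SVZ and cortex tumors none passed in limma (5 at an unadjusted p under 0.05), where 0.00502% of all genes passed. Without GFAP cortex tumor 1, Ccl8 (1.70), Cxcl9 (2.11) and Cxcl14 (-1.23) passed between them (limma adjusted p = 0.0408, 0.0479 and 0.0408), where 2.7% of all genes did. Between SVZ and hippocampus tumors Cxcl9 passed, higher in SVZ tumors by 2.59 ± 0.49 (limma adjusted p = 0.0206; 0.316% of all genes passed). All 3 SVZ arrays were above all 7 hippocampus arrays, as was so for 2.72% of all genes. The Cxcl9 call was lost when any 1 of GFAP SVZ tumors 1 and 2 was left out (2.02 to 2.77, limma adjusted p from 0.0678 to 0.182), without GFAP hippocampus tumors 5 to 7 (1.99, adjusted p = 0.0934) and in a fit of these 2 groups alone. Between normal hippocampus and normal cortex no member passed in limma, and none had an unadjusted p under 0.05, where 1.29% of all genes passed. Fitted on the 8 normal arrays alone, 5 passed (Cxcl10 0.54, Cxcr4 0.47, Ccl9 0.44, Cxcl14 -0.29 and Ccl17 -0.53), a smaller share than the 13.9% of all genes that passed in that fit.

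The change in NES tumors minus the change in SYN1 tumors, a contrast that also differs in region, passed for no member in limma (7 at an unadjusted p under 0.05), where 3.86% of all genes passed. The 4 largest of these 7 were Ccl6 (-2.19, 95% interval -3.79 to -0.59), Ccr1 (-1.68, -2.81 to -0.55), Ccl9 (-1.67, -2.76 to -0.57) and Cxcl14 (1.26, 0.48 to 2.04; limma adjusted p = 0.103, 0.0783, 0.0729 and 0.0577). With only the arrays of the 4 groups concerned in the fit, 6 members passed (these 4, Ccl19 and Cxcl12), where 19.1% of all genes did, a larger share than that of the members.

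GFAP hippocampus tumors 5 to 7 lay below tumors 1 to 4, with no overlap, for 12 of the 47 genes: Ccl2, Ccl3, Ccl5, Ccl7, Ccl11, Ccl25, Ccr1, Ccr3, Cxcl9, Cxcl11, Cxcl16 and Cxcr6. None lay above them in that way, as 5% of all genes did. Of all genes, 28.9% lay lower in tumors 5 to 7 with no overlap. The members' share of such lower genes is thus close to that of the array as a whole. Ccl2 was at 10.24, 11.34, 10.48 and 10.24 in tumors 1 to 4 and at 7.81, 9.43 and 8.38 in tumors 5 to 7. Microglia and macrophage markers overlapped between these arrays (9.999 to 10.71 and 9.83 to 10.54), while monocyte markers (8.72 to 9.29 and 7.98 to 8.66) and endothelial markers (9.02 to 9.21 and 8.11 to 8.55) did not. Their part in the difference was not tested.

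A list of 15 other genes of the chemokine system held members that rose and members that fell. GFAP cortex and GFAP hippocampus tumors each had 7 higher and 2 lower. SYN1 tumors had 6 higher and 3 lower, NES tumors 2 higher and 0 lower, and SVZ tumors 5 higher and 2 lower. Of all genes, 9%, 16.1%, 18.2%, 5.69% and 16.2% were higher in these 5 comparisons, in that order. Lower were 18.8%, 25.2%, 20.5%, 2.86% and 21.4%. Pf4 and Ppbp, the CXC chemokines of platelets, rose in all groups but NES tumors (Pf4 by 1.78, 3.05, 2.39 and 2.72, and 0.73 in NES tumors, limma adjusted p = 0.434). Cd74, the receptor of the cytokine Mif and the invariant chain of antigen presentation, rose in all 5, by 2.36, 2.39, 2.67, 3.69 and 4.51. Cmklr1, the chemerin receptor of macrophages, also rose in all 5. Cx3cl1, the neuronal ligand of the microglial receptor Cx3cr1, fell by 2.24, 2.27, 3.07 and 2.95 log2 units in GFAP cortex, GFAP hippocampus, SYN1 and SVZ tumors (in NES tumors -0.85, limma adjusted p = 0.158). Cx3cr1 passed in none. Of the scavenging receptors, which bind chemokines without signalling to migration, Ackr1 fell in the same 4 groups and Ackr3, which takes up Cxcl12, rose in GFAP cortex, GFAP hippocampus and SYN1 tumors (0.75, 0.78 and 1.73). The lymphotactin genes Xcl1 and Xcr1 passed in none.

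Genes known to induce chemokines also rose. Of 20 measured cytokines, NF-kB subunits and interferon regulators, 13 rose in GFAP cortex, 12 in GFAP hippocampus and 15 in SYN1 tumors. In NES tumors 8 rose and in SVZ tumors 17, and none fell in any group. Among all genes, 9%, 16.1%, 18.2%, 5.69% and 16.2% were higher in these comparisons. Il1a, a cytokine of activated myeloid cells, rose in all 5, by 2.12, 1.54, 2.04, 2.10 and 1.87, as did the TNF receptors Tnfrsf1a and Tnfrsf1b. Tnf itself rose in SYN1 (0.66) and SVZ tumors (0.84). Nfkbia, the NF-kB inhibitor that NF-kB itself induces, rose in all groups but NES tumors (0.94, limma adjusted p = 0.0563). Of 11 measured genes of receptor signalling, Dock2, Rac2, Pik3cg and Rgs1, which act in leukocyte migration, and the G protein subunit Gnai3 rose in all 5 groups. Arrb1, an arrestin abundant in neurons, fell in all but NES tumors.

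Markers of the leukocytes that carry these receptors were measured on the same arrays. Of all genes, 9%, 16.1%, 18.2%, 5.69% and 16.2% were higher in GFAP cortex, GFAP hippocampus, SYN1, NES and SVZ tumors. Lower were 18.8%, 25.2%, 20.5%, 2.86% and 21.4%. A short marker list can hold a few calls at these shares, so small counts say little about a cell type. Microglia and macrophage markers had a mean log2 signal of 8.09 to 8.43 on normal and 9.27 to 10.71 on tumor arrays, and 10, 12, 11, 12 and 11 of 12 rose in GFAP cortex, GFAP hippocampus, SYN1, NES and SVZ tumors. Monocyte markers were at 6.48 to 6.84 on normal and 7.72 to 9.59 on tumor arrays, with 6, 7, 8, 5 and 7 of 8 higher. Markers of resting microglia were at 8.40 to 8.69 on normal arrays and, in NES tumors, at 8.97 to 9.52, above every normal array, with a median difference of 0.60, although 1 of 8 passed there. In the other tumors they were at 7.82 to 9.49, on both sides of normal tissue, with 1 of 8 higher and 1 lower in SYN1 and 1 lower in SVZ tumors. Neutrophil markers rose in 3, 4, 3, 1 and 3 of 9, among them Mmp8 in all groups but NES tumors. Ly6g, the defining neutrophil surface marker, passed in none. T cell markers were higher in none of 9 in GFAP cortex, GFAP hippocampus and SYN1 tumors, in 1 in NES (Cd4, which macrophages can also express) and in 3 in SVZ tumors (Cd3e, Cd3g and Cd8b1). NK and cytotoxic markers rose in 6 of 8 in SVZ tumors, where Cxcl9 was highest, in 1 (Klrk1) in GFAP hippocampus tumors and in none in the other groups. Endothelial markers rose in 2, 5, 6, 1 and 6 of 8, and mural and fibroblast markers in 6, 3, 3, 0 and 1 of 8. Dendritic cell markers were higher in 1, 1, 1, 2 and 2 and lower in 2, 2, 3, 0 and 2 of 7. Astrocyte markers were higher in 1 of 8 in GFAP hippocampus tumors and lower in 2, 4 and 4 in GFAP cortex, SYN1 and SVZ tumors. The part of these cells in the chemokine and receptor levels was not tested.

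**Figure D5:**
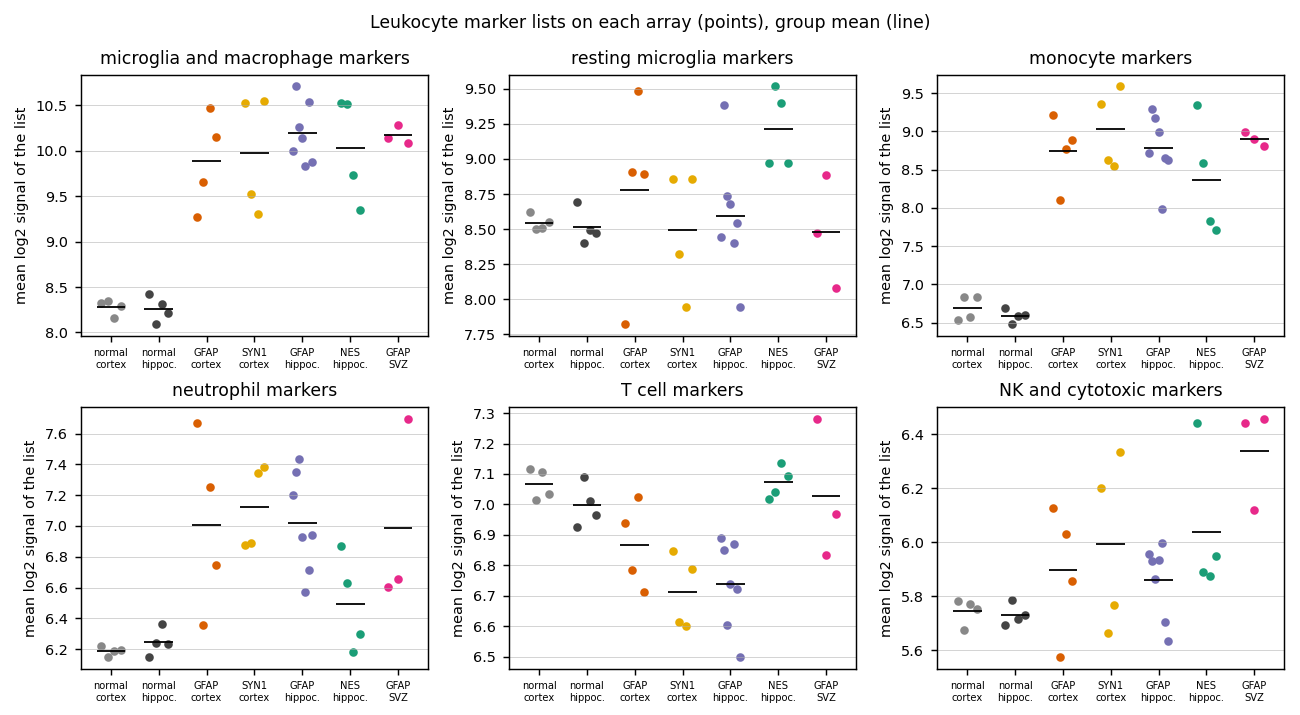
Mean log2 signal of 6 leukocyte marker lists on each array (points) by group, with the group mean (line). Microglia and macrophage markers separate tumor arrays (9.27 to 10.71) from normal ones (8.09 to 8.43), and NK and cytotoxic markers are highest on average on SVZ tumor arrays (6.12 to 6.46).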

How the data were processed

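RNA of 30 samples was measured on 1-colour arrays, and the deposited table gives 1 log2 signal per probe set and array. Affymetrix Power Tools, RMA and MAS5 are named in the submitters' processing notes, with no role or version, and how the arrays were scaled to each other is not given in the sources used here. The deposited log2 values were used without further normalization. Of 35556 probe sets, 21789 name a single gene, 1621 name several and 12146 none in the platform annotation. Of the single-gene probe sets, 21698 were matched to RefSeq. The brightest single-gene probe set stood for each of 19938 genes.

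A model of 7 group means was fitted to all genes on 30 arrays with limma 3.58.1 in R 4.3.3 (lmFit, contrasts.fit, eBayes), and p-values were adjusted with the Benjamini-Hochberg method within each of 13 comparisons. The number of arrays limits the precision. The code was tested on simulated data. Alternatives were 2 other scalings, leaving out the 30% dimmest genes, averaging all single-gene probe sets of a gene, trended and robust eBayes, only the groups compared, the replicate number as a block, leaving out the arrays that stand apart, and leaving out each array in turn. Their effect on single genes was followed for every member called in at least 1 comparison. Every member may be named. Arrays far from their group were looked for in 24 members: the 12 with the largest changes and those of the ligand and receptor pairs.

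Groups share replicate numbers in the sample titles. For GFAP hippocampus and GFAP cortex tumors the deviations of all 4 same-numbered pairs correlated over 0.1 (0.277 to 0.306), so the blocked value is given beside that comparison. This pairing comes from the data and the numbers in the titles, with no stated shared litter or day. The members, the gene and marker lists and the 4 arrays named as standing apart were chosen with earlier results of these data known.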

Additional observations from a re-analysis of the deposited data

Results flagged for a closer look

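Within a group, single arrays lay far from the others for 9 of the 144 combinations of gene (24 members) and group (4 to 7 arrays) that were examined. Chance alone marks about 1 in 20 such groups. In the tumors, the Ccl7 signal of GFAP cortex tumor 4 was high at 10.4 (the other 3 lay at 9.16 to 9.22), and Cxcr3 in NES hippocampus tumor 1 was high at 7.73 (others 6.94 to 7.005). Cxcr5 in GFAP cortex tumor 2 was low at 5.27 (others 5.45 to 5.47), and Ccl20 in GFAP hippocampus tumor 5 was low at 5.70 (others 6.22 to 6.58).

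Among the normal arrays, Ccl6 was high on normal hippocampus 3 at 8.52 (others 7.495 to 7.65), the array on which Cxcl9 was low at 6.51 (others 6.84 to 6.90). Cxcr4 was high on normal cortex 2 at 7.31 (others 6.72 to 6.81), and Ccl9 was low on normal cortex 1 at 6.10 (others 6.63 to 6.67). Ccl5 was low on normal hippocampus 2 at 7.32 (others 7.40 to 7.41).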

How the results depend on the processing

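The precision is limited by 3 to 7 arrays a group and, for the 22 members among the dimmest 30% of genes, by a low signal. No called difference of a member changed sign in any alternative. Over all members called in at least 1 comparison, 866 calls held and 138 were lost over the alternatives that left out 1 array, and 742 held and 66 were lost over the other settings.

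The counts of members that passed between tumor and normal tissue stayed within 1.5 times of the values reported, apart from those that left out 1 array. With 1 array left out they ran from 13 to 18 in GFAP cortex, 19 to 23 in GFAP hippocampus, 17 to 22 in SYN1, 5 to 13 in NES and 21 to 25 in SVZ tumors. In these fits 21.4% to 30.7%, 34.5% to 44.3% and 34.5% to 37.3% of all genes passed in GFAP cortex, GFAP hippocampus and SYN1 tumors. In NES and SVZ tumors 3.52% to 9.34% and 30.5% to 36.3% did. Between SYN1 and GFAP tumors the count of members ran from 0 to 2 (0.00502% to 5.68% of all genes). Between NES and GFAP tumors it ran from 0 to 9 (0.0301% to 17%), and between GFAP hippocampus and cortex tumors from 0 to 2 (1.03% to 7.13%). SVZ tumors gave 0 to 3 against cortex tumors (0.00502% to 2.7%) and 0 to 2 against hippocampus tumors (0.015% to 1.62%). The change in NES minus that in SYN1 tumors gave 0 to 4 (1.59% to 10.8%). Counts were 0 to 0 between normal tissues (0.848% to 1% of all genes). They were also 0 to 0 for the change in GFAP hippocampus minus that in GFAP cortex tumors (0.542% to 1.35%).

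Other settings moved the smaller counts, and the cause was not tested. Between SYN1 and GFAP cortex tumors 1 member passed with centred arrays, 3 without the 4 arrays apart and 2 without GFAP cortex tumor 1, instead of none, where 0.642%, 13.3% and 5.68% of all genes passed. Between SVZ and GFAP cortex tumors these settings gave 2, 6 and 3, and quantile normalization 1, instead of none, against 0.266%, 11.8%, 2.7% and 0.145% of all genes. Between SVZ and GFAP hippocampus tumors 2 passed with quantile normalization (0.727% of all genes) and 0 without the 4 arrays apart, without GFAP hippocampus tumors 5 to 7 or in a fit of both groups alone, instead of 1. A fit of only the groups compared gave 0 instead of 7 between NES and GFAP tumors, 0 instead of 1 between GFAP hippocampus and cortex tumors and 5 instead of 0 between normal tissues (13.9% of all genes). The change in NES minus that in SYN1 tumors gave 2 with centred arrays, 1 without the dimmest genes and 6 in a fit of the groups concerned, instead of 0, against 5.53%, 5.88% and 19.1% of all genes. Centring moved the median difference of all genes from -0.04 to -0.20 for NES tumors against normal hippocampus.

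With the replicate number as a block, 15, 23, 27, 12 and 28 members passed in GFAP cortex, GFAP hippocampus, SYN1, NES and SVZ tumors against normal tissue, where 16.6%, 44.6%, 47.3%, 11.9% and 51.3% of all genes did. The block gave 0 members between NES and GFAP tumors, where 7.33% of all genes passed. It gave 0 between GFAP hippocampus and cortex tumors and between SVZ and hippocampus tumors, where 0% of all genes passed. It gave 5 between normal tissues and 5 for the change in NES minus that in SYN1 tumors (14% and 17.2% of all genes). Outside the GFAP hippocampus and cortex tumors, same-numbered arrays correlated from -0.394 to 0.565 and not every pair was over 0.1. With so few pairs this cannot show whether same-numbered arrays share more than a number.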
